A study of Mus musculus with 12 samples.

Results

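The interaction of C-178 with the response to CMA was measured per gene as a difference of differences in mRNA level. It is the change from C-178 alone to C-178 plus CMA, minus the change from unstimulated cells to CMA alone. All 12 of the 12 libraries of the study enter it. The cells were primary bone marrow derived macrophages of wild-type C57Bl/6 mice at passage 1, in 4 groups of 3 libraries. Cells were left without stimulation, or were given C-178, CMA, or C-178 together with CMA, with a treatment time of 2 h. C-178 is a covalent inhibitor of mouse STING, and CMA is a small-molecule agonist that binds mouse STING. No genetic change is labelled in any group, doses are not stated, and nothing in the labels says whether libraries of a group came from separate mice or cultures. P-values below therefore measure the spread between these libraries, which may be technical. In bulk RNA, fewer cells of a type and less RNA per cell cannot be told apart.

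STING is an adaptor protein of the endoplasmic reticulum that relays the sensing of DNA in the cytosol. After activation it moves to the Golgi and recruits the kinase TBK1, which phosphorylates IRF3, the factor that switches on the interferon-beta gene together with a first set of antiviral genes. The same complex also activates NF-κB, which drives genes of inflammatory cytokines and of their inhibitors. Secreted interferon then acts back on the cells through its receptor, and the factors this activates bind the interferon-stimulated response element.

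Levels are normalised counts per library, and a change is a difference on the log2(value + 1) scale with its standard error (SE). A gene was called when the adjusted p of limma, over 11440 tested genes, was under 0.05. A negative interaction means that the change with CMA was lower in the presence of C-178, a positive interaction that it was higher. An interaction of 0 means the same fold change with and without C-178, whatever the amount. For that reason the share retained is given too, on the linear scale: the amount CMA added (or took away) in the presence of C-178, as a percent of the amount without it. Libraries held 7.049 to 36.438 M reads, and library 1 was the deepest in the C-178 group and in the group with both compounds (28.476 and 36.438 M). The median SD between libraries was 0.34 on the log2 scale with both compounds, against 0.115 in unstimulated cells, 0.179 with C-178 and 0.148 with CMA. All 25 macrophage markers were tested, and their summed level was 567465 to 760927 in every library. The extraction text of the labels speaks of embryonic fibroblasts, and the fibroblast markers are given below beside the matrix genes.

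The 250 bases before the start of 4 genes are shown because these genes mark the ends of what was measured: Ifnb1 had the most negative interaction, Nfkbia a strongly negative one, and Oasl1 and Isg15 rose about as much with C-178 as without. Nfkbia and Isg15 were chosen after their values were seen. The sequences are from RefSeq (GRCm38.p6), and capitals mark matches to the motifs, which were searched on both strands. Among them were an NF-κB site and the interferon-stimulated response element core (a pair of GAAA boxes with any pair of bases between them). The others were the antioxidant response element core TGACNNNGC, an AP-1 site (TGANTCA) and a CRE site (TGACGTCA).
Ifnb1 (chr4:88522795-88523044, minus strand): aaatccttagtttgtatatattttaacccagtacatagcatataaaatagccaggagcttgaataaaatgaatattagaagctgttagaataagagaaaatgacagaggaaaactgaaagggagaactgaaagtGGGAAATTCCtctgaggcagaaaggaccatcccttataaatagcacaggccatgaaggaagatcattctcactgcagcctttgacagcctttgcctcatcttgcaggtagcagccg
Nfkbia (chr12:55492648-55492897, minus strand): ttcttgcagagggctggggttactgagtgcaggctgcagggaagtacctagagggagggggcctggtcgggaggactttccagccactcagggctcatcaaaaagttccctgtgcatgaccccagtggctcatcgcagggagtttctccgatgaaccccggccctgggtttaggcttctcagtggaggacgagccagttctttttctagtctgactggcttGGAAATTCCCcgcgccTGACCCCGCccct
Isg15 (chr4:156200819-156201068, minus strand): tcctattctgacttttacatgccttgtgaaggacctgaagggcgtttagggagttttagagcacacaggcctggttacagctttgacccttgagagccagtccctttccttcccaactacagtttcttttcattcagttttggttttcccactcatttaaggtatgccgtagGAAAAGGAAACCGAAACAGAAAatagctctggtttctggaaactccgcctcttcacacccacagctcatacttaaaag
Oasl1 (chr5:114922990-114923239, plus strand): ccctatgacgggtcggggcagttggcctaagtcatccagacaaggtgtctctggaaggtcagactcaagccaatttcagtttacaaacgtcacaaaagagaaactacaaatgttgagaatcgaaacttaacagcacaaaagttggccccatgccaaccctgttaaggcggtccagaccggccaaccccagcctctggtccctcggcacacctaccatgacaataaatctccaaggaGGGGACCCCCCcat
The match in Ifnb1 began at position -116 from the start and is an NF-κB site. Nfkbia held an NF-κB site at -29 and an antioxidant element core at -13. Isg15 held overlapping interferon element cores at -78, -72 and -66. Oasl1 held overlapping NF-κB matches at -14 and -13 and no interferon element core in this window. Bmf, the gene with the most positive interaction, held none of the 5 motifs searched in the window of 1 of its 3 listed starts.

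CMA alone raised 2224 tested genes (19.4%) and lowered 2047 (17.9%). In the presence of C-178 it raised 1548 (13.5%) and lowered 1440 (12.6%). The interaction itself was called for 1137 genes (9.94%), of which 685 were negative (5.99%) and 452 positive (3.95%). Counts of called list members below are to be read beside these shares. The lists were chosen with earlier results of these data known, so their counts are a description and no support. At least a 2-fold interaction was called for 463 negative and 239 positive genes. These counts moved with single libraries. Negative and positive calls were 2019 and 1681 without library 2 of the group with both compounds, and 204 and 135 without CMA library 2. They were 263 and 160 without CMA library 3, 270 and 138 without C-178 library 2, and 378 and 172 without C-178 library 3. Leaving out an unstimulated library gave 329 and 154 (library 1), 243 and 122 (a) or 364 and 194 (b), and without library 1 of the group with both compounds positive calls were 291. With a replicate term for the same-numbered libraries of both C-178 groups the counts were 2054 and 1727, and they held all 685 and 452 genes. This term was added after seeing the data. It leaves the interaction values as they are and changes only their spread, so the kept calls, and calls gained with it below, are no independent support. In all 12 fits that each left out a library, 196 negative and 110 positive genes stayed called.

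Most negative genes were genes that CMA raised. The change with CMA alone enters the interaction with a minus sign. Negative calls therefore favour raised genes and positive calls lowered ones, so the splits and medians below only describe the called genes. Of the 685, 194 rose with CMA in both settings, 383 rose without C-178 and were not called with it, and 24 rose without C-178 and fell with it. A further 69 fell only where C-178 was present, 11 were called in neither setting and 4 fell in both. Their median change with CMA was 1.32 without C-178 and 0.09 with it. The positive genes mirrored this: 126 fell in both settings, 232 fell without C-178 and were not called with it, and 13 fell without and rose with it. Another 64 rose only with C-178 present, 12 were called in neither and 5 rose in both, with medians of -1.11 without and -0.10 with C-178. Over the 11440 genes, the changes in both settings, which share no library, had a Pearson correlation of 0.748 and a Spearman correlation of 0.496. Genes are not independent replicates, so this is a description.

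**Figure D1:**
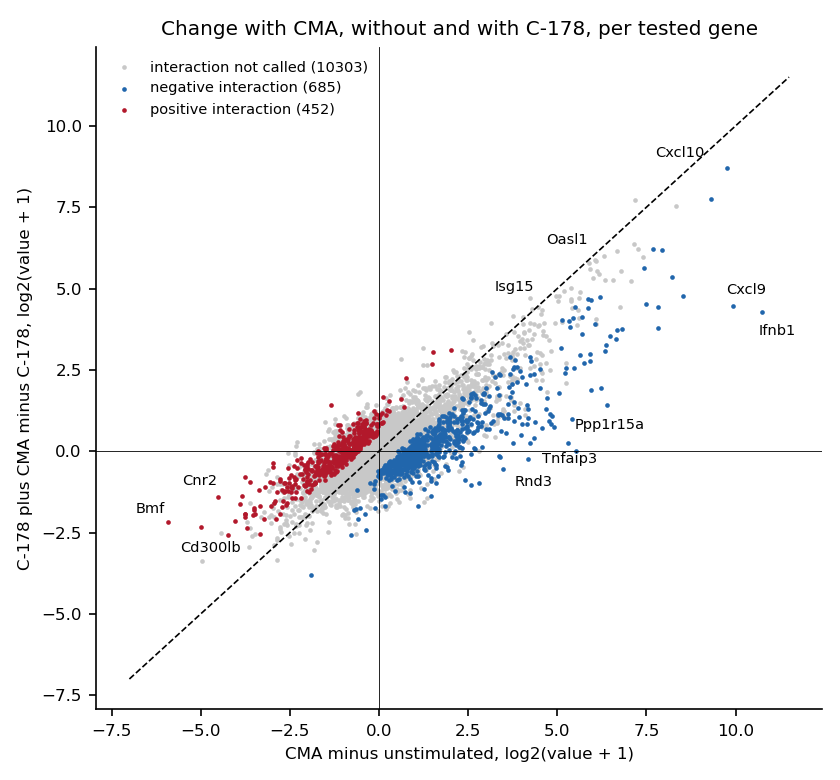
Change with CMA per tested gene, without C-178 (x axis) and with C-178 (y axis), both as differences of log2(value + 1). Blue points are the 685 genes with a negative and red points the 452 genes with a positive interaction, grey points were not called, and the dashed line marks equal change. Ifnb1 and Cxcl9 lie far below the line, Isg15 and Oasl1 on or near it, and Bmf, Cnr2 and Cd300lb above it at the lower left.

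All 3 tested type I interferon genes were negative. Of these, Ifna4 and Ifna2 passed the filter (above 10 in at least 3 libraries) only through the libraries with CMA alone. That nearly fixed their direction, so their calls are no support. Ifnb1 had the most negative interaction of all tested genes. Ifnb1 encodes interferon-beta, the first interferon released after STING activation (chr4:88522025-88522774 in mm10, minus strand). It had no read in the 3 unstimulated libraries and 0.717, 3.01 and 2.91 normalised counts with C-178. With CMA it reached 1424, 2211 and 1630, and with both compounds 54.0, 39.98 and 84.0, so the 4 groups did not overlap. The rise was at least 2674-fold without C-178, against a floor of 3 reads over the unstimulated group, and 26.8-fold with it, against 6 reads. The interaction was -6.49 ± 0.51 (limma adjusted p = 2.64e-05), and 2.95%, 2.15% and 4.66% of the amount added by CMA was retained in the libraries with both compounds. Of 20 listed type I and type III interferon genes, 10 had a read with CMA and 5 with both compounds, against 0 and 1 in the matching controls. The other tested members were interferon-alpha genes. Ifna4 had 71 reads with CMA and 2 with both compounds, and Ifna2 48 and 5, with 0 in both control groups. Their limma interactions of -5.07 and -3.98 depend on the pseudocount, and neither Ifna4 nor Ifna2 was called by edgeR (adjusted p = 1 for each). Interferon-alpha genes are near-identical copies, so reads may be split between them.

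Fewer NF-κB target genes rose when C-178 was present. Of 53 tested genes of this list, 42 rose with CMA alone and 22 with C-178 present, and their median change was 1.46 without and 0.55 with C-178. The interaction was negative for 27 (50.9%) and positive for 1, Bcl2l1, and its median was -0.96, against 0.01 over all tested genes. The median was close in each of the libraries with both compounds (-1.03, -1.12 and -1.18). The inhibitors that NF-κB induces against itself were among the called genes. Tnfaip3, which encodes the ubiquitin-editing enzyme A20, stood at 205.4 to 231.9 normalised counts in unstimulated cells and 196.2 to 245.4 with C-178. It rose to 3166, 4770 and 4209 with CMA but to 411.8, 532.6 and 268.9 with both compounds, an interaction of -3.33 ± 0.31 (limma adjusted p = 6.49e-05). No library with both compounds came near those with CMA. Nfkbia, which encodes the NF-κB inhibitor IκBα, rose 5.69-fold without and 1.53-fold with C-178 (interaction -1.90 ± 0.20). Birc3, an inhibitor of apoptosis and ubiquitin ligase, rose 3.99-fold without C-178 and was at 1.30 times its control level with it, not called (-1.61 ± 0.20). The calls of these 3 genes held under every alternative tried.

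The secreted products of the NF-κB pathway followed the same direction with different sizes. Tnf encodes the cytokine TNF and read 4762, 8209 and 6630 with CMA against 872.3, 1268 and 1256 with both compounds, from controls of 453.3 to 769.3. It retained 10.5% of its rise (interaction -2.21 ± 0.29, limma adjusted p = 0.00105). Il1a, which encodes the alarmin interleukin-1 alpha, rose 11.4-fold with CMA alone and was at 0.872 times its control level with C-178 present, not called (-3.58 ± 0.38). Il1b, which encodes interleukin-1 beta, rose only 1.76-fold without C-178, while with C-178 its level after CMA was 1.39-fold lower than before (-1.30 ± 0.22). Il6, the gene of the acute-phase cytokine interleukin-6, read 562.0 to 724.3 with CMA and 55.4 to 91.4 with both compounds. It was not called (-2.33 ± 0.75, limma adjusted p = 0.0614), and C-178 library 2 had no read of it. Without that library it was called (-3.19, limma adjusted p = 0.000955), as it was without library 2 of the group with both compounds (-2.52, limma adjusted p = 0.0305), with edgeR (adjusted p = 0.0134) and with the replicate term (limma adjusted p = 0.0155). Over the 26 tested cytokine genes, 8 were negative, among them Il33, Tnfsf15 and Tnfsf9, and the sole positive gene was Il10. Il10 encodes an anti-inflammatory cytokine and read 395.6, 459.9 and 442.4 with CMA and 533.5, 899.6 and 1042 with both compounds. Unlike the other called cytokine genes it was thus highest with both compounds (1.51 ± 0.30, limma adjusted p = 0.0104).

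Chemokine genes split between members. Of 21 tested, 6 were negative (Cxcl9, Cxcl11, Cxcl2, Ccl3, Ccl4 and Cxcl10) and 0 positive. Cxcl9, Cxcl11 and Cxcl10 encode the ligands of the T cell receptor CXCR3 and are neighbours on chromosome 5 (92321347 to 92365485 in mm10, all on the minus strand). Cxcl9 read 18728, 32455 and 23878 with CMA and 498.7, 1669 and 354.5 with both compounds, from 20.9 to 40.7 in both controls. Its rise was 1041-fold without and 28.2-fold with C-178 (interaction -5.46 ± 0.61, 95% interval -6.76 to -4.15). Cxcl10 read 71631, 92359 and 83458 with CMA and 34067, 31751 and 26610 with both compounds, and it retained 37.3% of its rise. Its interaction was -1.05 ± 0.30 (95% interval -1.69 to -0.41, limma adjusted p = 0.0411), so the intervals of these neighbours did not overlap. The call of Cxcl10 was lost in 8 of the 12 fits that left out a library (unstimulated a or b, C-178 1 or 2, CMA 2 or 3, both compounds 1 or 3), with values of -1.13 to -0.80 (limma adjusted p = 0.0509 to 0.11). Cxcl11 retained 9.58%, and edgeR did not call it (adjusted p = 0.115). It had 1 read over the unstimulated and 2 over the C-178 libraries, so the size of its interaction depends on the pseudocount.

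The monocyte attractants Ccl2, Ccl7 and Ccl12 on chromosome 11 were not called. Ccl2 encodes the main ligand of the monocyte receptor CCR2 and read 5333, 5860 and 5499 with CMA and 3811, 3231 and 3637 with both compounds. It rose 23.7-fold without and 20.2-fold with C-178, an interaction of -0.22 ± 0.20 with a 95% interval of -0.64 to 0.21. The groups with CMA and with both compounds still did not overlap in level, and C-178 alone had a mean of 176.4 against 235.0 without stimulation. Ccl7 (-0.34 ± 0.25) and Ccl12 (-0.53 ± 0.39) lay close to Ccl2. Ccl3 and Ccl4, which encode macrophage inflammatory proteins and lie further along the chromosome, were called at -1.97 ± 0.27 and -1.18 ± 0.32. The call of Ccl4 was lost in 7 of those fits (each unstimulated library, C-178 1 or 3, CMA 2 or 3), with values of -1.26 to -0.95. Ccl5, which encodes the T cell attractant RANTES, was not called (-0.40 ± 1.03). With both compounds it read 2183, 2729 and 34420, so that 1 library lay far above the others and above all 3 CMA libraries (7445, 9618 and 8240). Without it Ccl5 was called (-1.67, limma adjusted p = 0.00902).

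**Figure D2:**
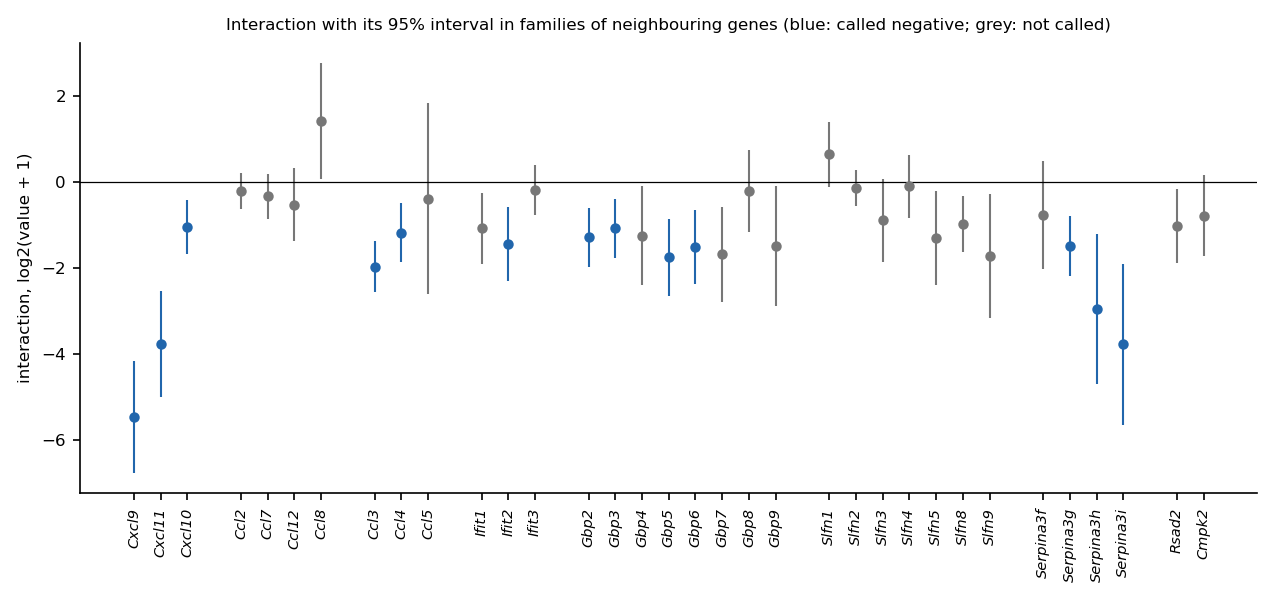
Interaction per gene (y axis, log2(value + 1)) with its 95% interval for families of neighbouring genes, in blue where called negative and in grey where not called. Cxcl9 and Cxcl11 lie far below Cxcl10, Ccl2, Ccl7 and Ccl12 lie near 0, and Ccl5 and Ccl8 have wide intervals. The value of Cxcl11 rests on few control reads and depends on the pseudocount.

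Most interferon-stimulated genes still rose. Of 73 tested members, 71 rose with CMA alone and 72 with C-178 present, and the median change was 3.16 without and 2.50 with C-178. The interaction was negative for 9 (12.3%) and positive for 2 (2.74%), and 60 of 73 values lay below 0, with a median of -0.63. The size of this median moved with the library: it was -0.47, -0.26 and -0.84 in libraries 1, 2 and 3 with both compounds, and -0.36 after quantile normalisation. The 9 negative genes were Ifih1, Ifi205, Gbp5, Herc6, Ifit2, Gbp2, Gbp3, Cxcl10 and Phf11d. Ifih1, which encodes the RNA sensor MDA5, was the most negative of them (-1.93 ± 0.36, limma adjusted p = 0.00716). It read 33088 to 44568 with CMA and 9948, 17520 and 7059 with both compounds, and retained 27.0% of its rise. The 2 positive genes were Ly6a, the gene of the surface antigen Sca-1, and Bst2, the gene of tetherin, which holds budding virus at the cell surface. Bst2 read 2742 to 2988 with CMA and 5964, 3518 and 6642 with both compounds (0.99 ± 0.27). With the length and GC trend removed Bst2 was at 0.43 and was not called. Ifih1, Ifi205 and Ly6a stayed called in all 12 fits that left out a library. Without CMA library 2 the calls of Gbp5 (-1.65), Gbp2 (-1.19), Gbp3 (-1.08) and Bst2 (1.02) were lost, and these 4 calls were lost in 5, 6, 10 and 9 of the 12 fits.

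Of the antiviral genes Rsad2, Ifit1 and Ifit2, which retained 39.9% to 50.4% of their rise, 1 was called, Ifit2. Rsad2 encodes viperin, a radical enzyme that stops viral RNA chains. It read 206411, 286401 and 256871 with CMA and 140775, 168211 and 71159 with both compounds, and retained 50.4% of its rise. Its interaction was -1.03 ± 0.40 and was not called (limma adjusted p = 0.101), but with the replicate term it was (limma adjusted p = 0.0042). Ifit1 encodes a protein that binds foreign RNA caps, and retained 47.1% (-1.08 ± 0.38, limma adjusted p = 0.0813, with the replicate term 0.000829), and was called without C-178 library 3 (-1.37) or without library 2 with both compounds (-1.27). Ifit2, a relative of Ifit1 on chromosome 19, retained 39.9% and was called at -1.44 ± 0.40 (limma adjusted p = 0.0387), a call lost in 8 of the 12 fits (each unstimulated library, C-178 1 or 2, CMA 2 or 3, both compounds 1), at -1.57 to -1.25. For Rsad2 the library with the highest of the levels with both compounds, number 2, changed the call: without it the interaction was -1.28 (limma adjusted p = 0.0209).

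A group of genes responded to CMA alike in both settings. Of 302 genes called in the same direction at 4-fold or more in both settings, 62 had a 95% interval of the interaction inside -1 to 1, and 50 of these rose. Of the 62, 17 were on the interferon-stimulated list. Oasl1 (chr5:114923240-114937915), an OAS-like regulator of IRF7 translation, read 14123, 15535 and 15236 with CMA and 11474, 10307 and 13316 with both compounds, from 154.0 to 271.4 in the controls. It rose 65.8-fold without and 58.5-fold with C-178 (-0.17 ± 0.24, 95% interval -0.68 to 0.35). Isg15, the gene of a ubiquitin-like modifier, rose 21.4-fold and 21.5-fold (-0.03 ± 0.36, 95% interval -0.79 to 0.74). Its libraries with both compounds read 8723, 4792 and 5487, around the CMA libraries of 7460 to 8430. Ifit3 (-0.19 ± 0.27), its neighbour I830012O16Rik (-0.38 ± 0.23), the GTPase gene Tgtp2 (0.08 ± 0.27), the nucleotidase gene Nt5c3 (-0.48 ± 0.22), Ccl2 and Ccl7 completed the 8 with the largest changes. Retained shares of these 8 ran from 59.7% for Ccl7 to 85.6% for Tgtp2, so for each of them the amount added by CMA was smaller with C-178.

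**Figure D3:**
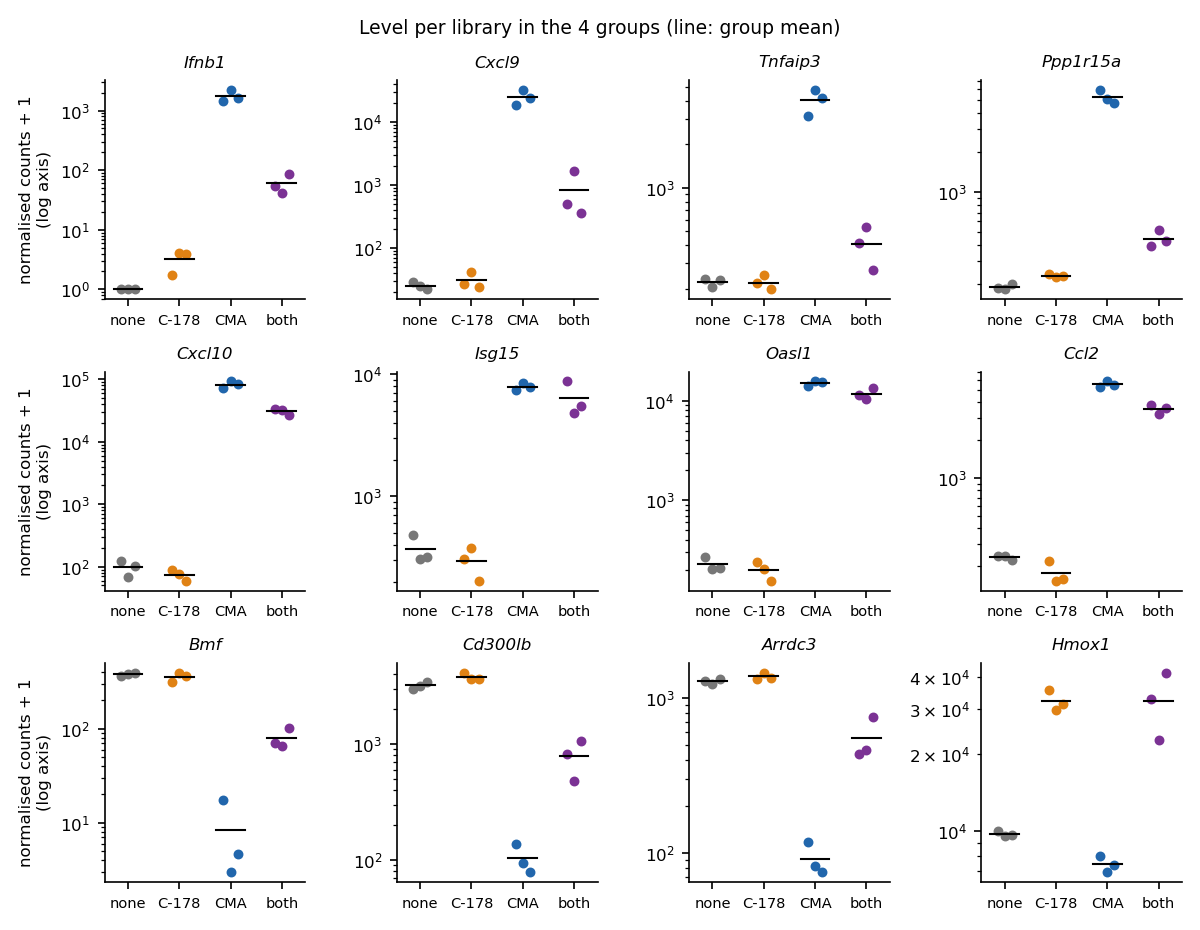
Level per library (y axis, normalised counts + 1, log axis) of 12 genes in cells given nothing, C-178, CMA or both compounds, with a line at each group mean. Ifnb1, Cxcl9, Tnfaip3 and Ppp1r15a were far lower with both compounds than with CMA. Isg15, Oasl1 and Ccl2 were nearer to the CMA level, though for Oasl1 and Ccl2 every library with both compounds lay below those with CMA. With both compounds Bmf, Cd300lb and Arrdc3 lay between the CMA and control levels. Hmox1 was high in both groups given C-178 and lowest with CMA alone.

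The promoters of these groups differed in the share that held each motif, as a description. A promoter was in the table for 9185 of the 11440 tested genes. The interferon element core stood in 4.08% of these, in 48.3% of the interferon-stimulated list, in 25% of the retained genes (12 of 48) and in 6.84% of the negative genes. The NF-κB site stood in 12.2% of all, in 41.5% of the NF-κB list, in 15.2% of the negative and in 12.5% of the retained genes. The shares in the called negative genes as a whole were thus nearer to those of all tested genes than to those of either list. Among genes that CMA raised, the interferon element core stood in 7.47% of the 482 negative and in 9.11% of the 1262 not called. A match is not a shown binding site.

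Genes that limit cytokine signals were called up for 7 of 15 in both settings, with a median change of 0.68 without and 0.62 with C-178. Their median interaction was -0.32, and 0.10 with the length and GC trend removed. Of the 15, 1 was positive and 4 were negative: Socs3, which encodes an inhibitor of STAT3 signalling, Cish, the kinase gene Pim1 and the phosphatase gene Ptpn2. Socs3 read 4274, 4585 and 4341 with CMA and 251.3, 506.9 and 158.9 with both compounds (-3.07 ± 0.42, limma adjusted p = 0.00137). Of 40 immediate early genes 15 were negative and 3 positive. Their median change was 0.43 without and -0.49 with C-178. Maff, a small Maf factor gene, rose 28-fold without C-178 and was at 1.95 times its control with it, not called (-3.84 ± 0.57). Egr1, Jun and Dusp1 were also negative, while Nr4a1, Dusp6 and Zfp36l2 were positive. Ier3, an early gene that modulates cell survival, was called in opposite directions: it rose 2.17-fold without C-178 and was 1.88-fold lower after CMA with C-178 (-2.06 ± 0.30). Opposite calls were made for 37 genes in all, and the largest beside Ier3 were those of Mybl1, Zc3h12c, Chd2 and 1110034G24Rik. Without CMA library 2 the calls of Mybl1 (-2.65), Zc3h12c (-1.66) and Cish (-2.51) were lost, and these genes lost their call in 2, 4 and 1 of the 12 fits.

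Ppp1r15a had the smallest SE among the most negative genes. It encodes GADD34, the phosphatase subunit that lifts the translation block of the integrated stress response. It read 5937, 5070 and 4763 with CMA and 387.6, 515.5 and 427.8 with both compounds, from 182.1 to 237.0 in the controls. The rise was 27.6-fold without and 1.92-fold with C-178, and 3.08% to 5.61% of it was retained (-3.85 ± 0.19, limma adjusted p = 1.4e-07). Most other stress response genes did not move in this way. Of 27 tested, 3 were negative (11.1%, against 5.99% of all tested genes): Ppp1r15a, Slc7a11 and the chaperone gene Hspa5. Slc7a11 lay between -2.83 and -1.56 over the alternatives tried. The median interaction of the list was 0.34. That median was 0.19 without library 3 of the group with both compounds, 0.175 with array weights and 0.098 with the length and GC trend removed. Of 9 tested itaconate, nitric oxide and arginine genes, 3 were negative and 0 positive, with a median interaction of -0.19. Irg1, the gene of the itaconate-producing enzyme, retained 11.7% of a 234-fold rise (-3.40 ± 0.40). Nos2, the gene of inducible nitric oxide synthase, and the arginine transporter gene Slc7a2 were at -3.19 ± 0.55 and -3.08 ± 0.68, and edgeR did not call Nos2 (adjusted p = 0.0667). Without CMA library 2 the calls of Slc7a2 (-2.83), Slc7a11 (-2.14) and Hspa5 (-0.56) were lost, and these genes lost their call in 1, 7 and 8 of the 12 fits.

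Genes of cell shape, adhesion and the matrix, a list chosen with earlier results of these data known, were negative for 8 of 40 tested (20%). Of these 40, 0 were positive, and the counts are a description. Their median change with CMA was 0.42 without and -0.08 with C-178, and 16 rose without but 3 with C-178. The median interaction was -0.69, and its size moved with the library: -0.48, -0.21 and -1.13 in libraries 1, 2 and 3 with both compounds. Rnd3 encodes a GTPase that loosens actin fibres, and read 801.0, 1131 and 1044 with CMA and 47.4, 84.2 and 47.4 with both compounds. With C-178 its level after CMA lay at 0.687 times the level before, which was not called (interaction -4.05 ± 0.34, limma adjusted p = 3.76e-05). Itga1, the gene of a collagen-binding integrin subunit, rose 22.4-fold without C-178 and was at 1.31 times its control with it, not called (-3.95 ± 0.46). Fap, a protease gene of activated fibroblasts, read 169.8, 459.9 and 418.5 with CMA and 16.6, 42.8 and 3.06 with both compounds (-4.97 ± 0.96). Tnn, the gene of the matrix protein tenascin-N (-4.44 ± 0.68), and the collagenase gene Mmp13 (-4.03 ± 0.94) followed, and Mmp13 was not called without CMA library 2 or 3, C-178 library 2 or unstimulated library a (-3.99 to -3.76).

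Markers of fibroblasts were counted beside these genes. Of 15 such markers 14 were tested, and their median interaction was -0.87. It was -0.72, -0.48 and -1.38 in libraries 1, 2 and 3 with both compounds. Their summed level was 1903 to 2068 in unstimulated cells, 2338 to 2710 with C-178, 2405 to 4220 with CMA and 1195 to 2916 with both compounds. Against a sum of at least 567465 for macrophage markers these levels were low. Of the 14, 1 (7.14%, against 5.99% of all tested genes) was called negative, the matrix gene Postn (-1.50 ± 0.39), and 13 had an interaction below 0. Dcn (-1.02), Acta2 (-0.85) and Col5a1 (-1.18) were not called, but each was with DESeq2, with the replicate term and without library 2 of the group with both compounds (limma adjusted p = 0.00415, 0.0209 and 0.0389 for the last). The call of Postn was lost in 7 of the 12 fits (each unstimulated library, C-178 2 or 3, CMA 2 or 3), at -1.57 to -1.31. The part of these cells in the result was not tested.

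**Figure D4:**
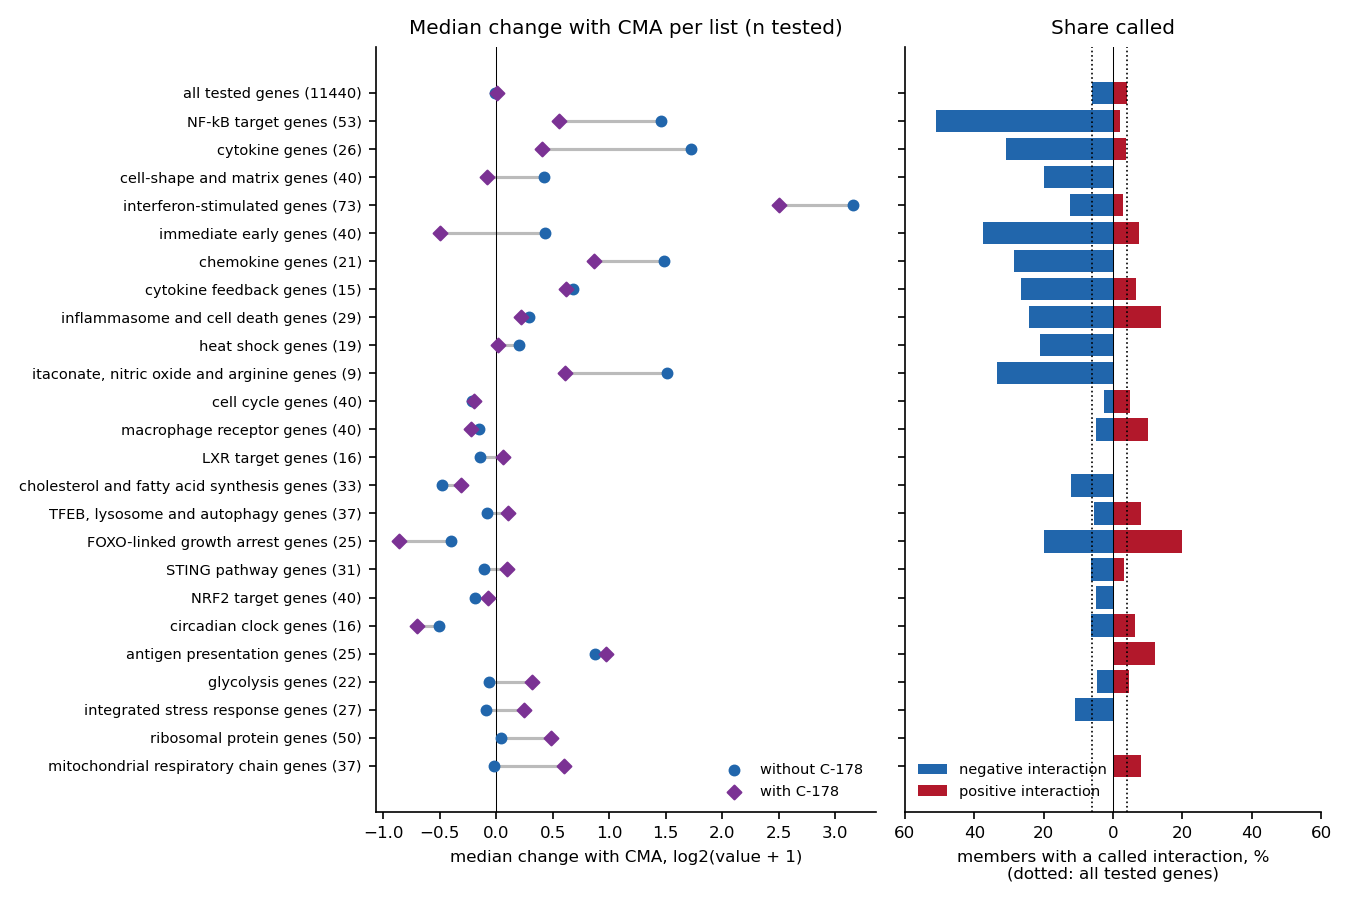
Left, median change with CMA (x axis, log2(value + 1)) of each gene list without C-178 (blue circles) and with C-178 (purple diamonds). Right, percent of tested members with a negative (blue, to the left) or positive (red, to the right) interaction, with dotted lines at the 5.99% and 3.95% of all tested genes. The NF-κB list has 50.9% negative, and the interferon-stimulated list has the largest changes in both settings.

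The positive genes were mainly genes that CMA lowered, which positive calls favour by the way the interaction is formed. Bmf, which encodes a BH3-only protein that promotes cell death, had the largest value (chr2:118528757-118549687, minus strand). It read 356.5, 383.4 and 388.5 in unstimulated cells and 314.8, 386.9 and 361.8 with C-178. With CMA it dropped to 16.5, 1.97 and 3.67, and with both compounds it read 69.6, 64.3 and 100.8. The fall was 51.0-fold without and 4.53-fold with C-178 (interaction 3.73 ± 0.64, limma adjusted p = 0.00485), and 74.9% of it by amount was retained. Receptor genes as a list had no common direction, with a median interaction of -0.10. Of 40 tested, 4 were positive (10%) and 2 negative (5%), against 3.95% and 5.99% of all tested genes. Of those most positive, Cnr2, the cannabinoid receptor gene of immune cells, fell 21.2-fold and 2.54-fold (3.12 ± 0.54). Cd300lb, an activating receptor gene of myeloid cells, fell 31.2-fold and 4.80-fold (2.65 ± 0.35), and P2ry6, the UDP receptor gene, 9.18-fold and 2.01-fold (2.10 ± 0.35). Levels with both compounds lay between those with CMA and those of the controls in each of these genes.

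Several regulators of growth and lineage were among the 12 most positive. Arrdc3, an arrestin-domain gene that restrains growth and is a FOXO target, fell 14.2-fold without and 2.51-fold with C-178 (2.47 ± 0.29). Tifab, an inhibitor gene of TRAF6 signalling, had the smallest SE of these (1.98 ± 0.17, limma adjusted p = 3.76e-05): it read 242.8 to 296.7 with CMA and 774.7 to 873.0 with both compounds. Tfeb, the gene of the master factor for lysosome genes, fell 10.2-fold and 2.27-fold (2.15 ± 0.39). The lysosome and autophagy list did not share its direction. Of 37 tested, 3 were positive (8.11%) and 2 negative (5.41%), against 3.95% and 5.99% of all tested genes. Id3 and Cebpa, transcription factor genes of myeloid cells, were at 2.02 ± 0.50 and 1.97 ± 0.51, and both calls were lost without C-178 library 2 (1.62 and 1.67) and in 6 further fits each. The FOXO-linked list split evenly, with 5 positive (Bmf, Arrdc3, Sesn1, Tsc22d3 and Zfp36l2) and 5 negative of 25 tested. Each share was 20%, against 3.95% positive and 5.99% negative over all tested genes. The remaining genes of the 12 were C130050O18Rik, Plekhg3 and AI467606, at 2.11, 1.91 and 1.86.

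Most antigen presentation genes were called up when C-178 was present. Of 25 tested, 15 rose without and 21 with C-178. The control lists shifted too: 0 of 50 ribosomal protein genes rose without and 16 with C-178, and 1 and 20 of 37 respiratory chain genes. The median interaction of the antigen presentation list was 0.25, and 0.17, 0.15 and 0.62 in libraries 1, 2 and 3 with both compounds. With the length and GC trend removed it was -0.0072. Of the 25, 0 were negative and 3 were positive (12%, against 3.95% of all tested genes): the class II genes H2-Aa, H2-Ab1 and H2-Eb1. H2-Eb1 read 80.8 to 108.6 with CMA and 168.1 to 203.6 with both compounds, from 97.9 to 121.5 in the controls (1.15 ± 0.23, limma adjusted p = 0.0102). In each of the 3 class II genes every library with both compounds lay above all other libraries. These genes were picked by their positive calls, and the share of all tested genes with such a separation was not counted. The call of H2-Eb1 stayed in all 12 fits, that of H2-Aa was lost without unstimulated library 1 or a, C-178 2 or CMA 3 (1.18 to 1.38), and that of H2-Ab1 also without C-178 3 or CMA 2. H2-Ab1 was not called with the length and GC trend removed (0.75, limma adjusted p = 0.091).

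Genes that C-178 itself changed bear on the reading of the interaction, since C-178 alone is one of its terms. C-178 alone called 11 genes (0.0962%), and 4 of them also had a called interaction. Txnrd1, which encodes thioredoxin reductase, rose from 2203 to 2496 normalised counts in unstimulated cells to 4863 to 6122 with C-178. It stood at 2462 to 2706 with CMA and at 2889 to 4111 with both compounds (interaction -0.77 ± 0.20, limma adjusted p = 0.0321). Ednrb, an endothelin receptor gene (-1.50 ± 0.39), and Nanos1 (-1.14) were also highest with C-178 alone, while B430306N03Rik was positive (1.03) and highest with both compounds. The calls of Txnrd1 and Ednrb were each lost in 7 of the 12 fits (each unstimulated library, C-178 2 or 3, CMA 2 or 3), with values from -0.83 to -0.68 and from -1.55 to -1.33. Hmox1 encodes heme oxygenase-1 and was not called (0.36 ± 0.26, 95% interval -0.19 to 0.91), but it was without library 2 of the group with both compounds (0.59, limma adjusted p = 0.0279). It read 29685 to 35380 with C-178 and 22692 to 41374 with both compounds, against 9567 to 10027 in unstimulated cells and 6904 to 8015 with CMA. The iron exporter gene Slc40a1 fell with CMA in both settings, 3.78-fold without and 2.61-fold with C-178 (0.50 ± 0.23, not called, but called without library 2 of the group with both compounds, at 0.66). Of 40 NRF2 target genes, 2 were negative (5%, against 5.99% of all tested genes), Slc7a11 and Txnrd1, and 0 positive. An antioxidant element core stood in 40.6% of the promoters of this list and in 17.3% of all.

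Few STING pathway genes had a called interaction. Tmem173, the gene of STING, had an interaction of -0.04 ± 0.21 (95% interval -0.49 to 0.41), with 478.0 to 763.8 normalised counts over all 12 libraries. Of 31 tested pathway genes, 2 were negative (Dtx4 and Tbk1) and 1 was positive (Zdhhc7, a palmitoyl transferase gene). These shares are close to those of all tested genes. Tbk1 rose 1.67-fold with CMA and was at 1.01 times its control with C-178 present (-0.73 ± 0.18), a call lost in 7 of the 12 fits (each unstimulated library, C-178 2 or 3, CMA 2 or 3), at -0.74 to -0.67. Those of Dtx4 and Zdhhc7 were lost without C-178 library 2 and in 8 and 4 further fits.

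Transcript length and GC content moved with the interaction. Over 11362 genes its Spearman correlation was -0.421 with transcript length and 0.447 with GC content, and for C-178 alone it was 0.363 and -0.338. Negative genes had a median length of 4621 bases and positive genes of 2993, against 3425 over all tested genes. Both sets were recounted with that trend removed per library, and 375 of the negative and 221 of the positive genes stayed called. Lists of housekeeping genes with short transcripts moved with that step. The 50 tested ribosomal protein genes had a median interaction of 0.43 and 0 calls, and 0.12 with the trend removed. The 37 respiratory chain genes had a median of 0.60 and 3 positive calls (Sdhc, Sdhd and Cox7a2), and 0.31 with the trend removed. The calls of these 3 genes were lost in 9, 10 and 9 of the 12 fits that left out a library, among them the one without CMA library 2 (0.85, 1.01 and 1.02). The NF-κB median was -0.96 and -1.09 with the trend removed, and the interferon-stimulated median -0.63 and -0.54. The part of length and GC content in single calls was not tested further.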

How the data were processed

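Messenger RNA of 12 libraries was measured with a stranded TruSeq kit. Per the submitters' processing notes, Bowtie2 2.2.1, limma 3.18.13 and mm10 were used, and for the counter, its annotation and the scaling nothing is given in the sources used here. The authors deposited a signal per gene and library (normalised counts). The table's 12 Cook's distance columns stayed out. Columns divided by their smallest step gave whole reads for 100% of values (tolerance 0.01).

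Genes above 10 in at least 3 libraries were tested with limma 3.58.1 (R 4.3.3) on log2(value + 1) over all 12 libraries, with trended eBayes and Benjamini-Hochberg adjustment, on 2-sided p. This gives all groups 1 spread per gene, although the libraries with both compounds spread most. edgeR 4.0.16 and DESeq2 1.42.0 on recovered reads, other scalings, filters, pseudocounts and left-out libraries were alternatives. On simulated data for 11386 genes, interactions of -2 and 2 were called in 94% and 100%, of -1 and 1 in 30% and 38%, and unchanged genes in 0.0268%. The simulation gave every gene and group the same dispersion, with no length or GC trend and no outlying library. Changes were seeded only in genes away from the floor in all groups. The measured libraries differ from that, so these rates need not hold for them. Libraries of a group differed beyond counting noise (chi-square per gene at least 2.35).

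The members, lists and rules were chosen with earlier results of these data known, so lists carry no test. Named are the 12 most negative and 12 most positive called genes with a group mean of at least 100, fixed genes, up to 4 members per list by adjusted p, whole neighbour families, the 8 largest retained and 5 largest opposite genes, and, beyond that rule, called members of a list, chosen after their values were seen. Some genes of the rule are given only in figures or counts. Coordinates, lengths and GC are from GENCODE M21 (11362 tested genes matched), promoters from RefSeq. The NF-κB motif searched was stricter than planned.

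Same-numbered libraries with C-178 and with both compounds deviated together (residual r = 0.45, 0.43 and 0.26), and were taken to pair. Those with CMA and both compounds (-0.14, 0.18 and -0.16) and with C-178 and CMA (-0.04, 0.06 and -0.08) did not. CMA library 1 and library 3 with both compounds, which differ in number, reached 0.34. The 3 values of a pair of groups depend on each other, and the deepest libraries share number 1. Of the unstimulated columns, 2 share a heading and are called a and b.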

Additional observations from a re-analysis of the deposited data

How the results depend on the processing

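With 28 alternatives, 48 of the 103 called genes among the 173 examined by rule kept their call in every alternative and 1 reversed: Hspa4l was at 0.15 with the length and GC trend removed. Another 44 not called were called in some alternative. Negative calls of the interaction (685) were 1673 with array weights, 450 with the length and GC trend removed, and 204 to 2019 when a library was left out. Positive calls (452) were 293 without a filter, 296 without the eBayes trend, 778 with DESeq2, 1438 with array weights and 122 to 1681 when a library was left out. The replicate block within the C-178 groups, added after seeing the data, gave 2054 and 1727. A replicate block over all groups gave 842 and 568, or 939 and 637 with unstimulated a and b exchanged. For CMA alone, array weights gave 3708 lower and 3672 higher genes, and leaving out a library 1532 to 2500 and 1708 to 2649. For CMA with C-178 present, that block gave 2268 lower and 2419 higher genes, and leaving out a library 884 to 2067 and 1057 to 2116. The cause of these shifts was not tested. edgeR shared 620 negative and 445 positive calls, DESeq2 660 and 442. Without the deep libraries, an alternative added after seeing the data, 522 and 387 were called. Quantile normalisation moved the median change with CMA alone to -0.115, and calls for it to 2667 lower and 1953 higher.

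Medians of lists near 0 turned sign. With the length and GC trend removed they were -0.0899 for the STING pathway, 0.10 for cytokine feedback, -0.18 for LXR targets, -0.0462 for macrophage, -0.37 for neutrophil and -0.13 for lymphoid markers, and -0.0072 for antigen presentation genes. The FOXO-linked median was -0.0056 with a pseudocount of 5 and between -0.0584 (without unstimulated replicate 1) and 0.233 (without CMA replicate 2) when a library was left out. Quantile normalisation gave 0.11 for macrophage receptors, and a filter above 50 gave 0.48 for mast cell and megakaryocyte markers. At 3 libraries a group, interactions near 1 were often not called on simulated data, so a gene not called may still differ.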

Other observations

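Other families of neighbouring genes rose with CMA in both settings. The guanylate-binding protein genes, which encode GTPases that attack the vacuoles of intracellular microbes, were called up for 8 of 8 with and without C-178, and 4 of them (Gbp2, Gbp3, Gbp5 and Gbp6) had a negative interaction, with the call of Gbp6 lost in 6 of the 12 fits that left out a library. Gbp7 (-1.68), Gbp4 (-1.25) and Gbp9 (-1.50) were not called, but were with the replicate block within the C-178 groups (limma adjusted p = 0.000626, 0.00545 and 0.00802) and without library 2 of the group with both compounds. Of 8 Schlafen genes, all rose in both settings and 1, the pseudogene Slfn10-ps, was negative (-1.53 ± 0.43), a call lost in 9 of the 12 fits that left out a library. Slfn1 (0.64 ± 0.35), Slfn2 (-0.14 ± 0.20) and Slfn4 (-0.10 ± 0.34) were not called. Slfn3 (-0.90), Slfn5 (-1.31), Slfn8 (-0.98) and Slfn9 (-1.71) were not called either, but were with that block (limma adjusted p = 0.0277, 0.00352, 0.001 and 0.00575) and without the same library. Of 4 tested Serpina3 genes, which encode secreted protease inhibitors, 3 were negative, while Serpina3f was not called (-0.77 ± 0.58). The call of Serpina3h (-2.95) was lost in 7 of the 12 fits that left out a library (-3.10 to -2.70) and with edgeR (-0.71, adjusted p = 0.753) and DESeq2 (-1.82, adjusted p = 0.453). Serpina3i (-3.78) was not called by edgeR (adjusted p = 0.133) or without unstimulated library a (limma adjusted p = 0.0516), and Serpina3g (-1.49) was not without CMA library 2 (-1.43). Over the unstimulated and the C-178 libraries Serpina3h had 2 and 0 reads and Serpina3i 0 and 1, so the sizes of both depend on the pseudocount. These copies are alike in sequence, so reads may be split between them.

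Sterol and fatty acid synthesis genes held 4 negative members of 33 tested (12.1%, against 5.99% of all tested genes). Insig1, which encodes the sterol sensor that holds back SREBP, rose 2.94-fold without C-178 and was at 1.19 times its control with it (not called, interaction -1.34 ± 0.30). Without CMA library 2 or unstimulated library 1 the interaction was not called (-1.26 and -1.28). Cell death genes went both ways, with 7 negative and 4 positive of 29 tested (24.1% and 13.8%, against 5.99% and 3.95% of all tested genes). Fas, the death receptor gene, read 301.6 to 544.7 with CMA and 87.1 to 109.9 with both compounds, below the 124.4 to 131.0 of C-178 alone (-2.65 ± 0.29, limma adjusted p = 0.000391). Tnfrsf1b, the TNF receptor 2 gene, fell 2.17-fold without C-178 and was 1.17-fold lower, not called, with it (interaction 0.90 ± 0.15). Of the LXR target genes, Srebf1 (0.48), Nr1h3 (0.78) and Nr1h2 (0.40) were not called, but were with the replicate block (limma adjusted p = 0.0104, 0.0428 and 0.0362).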
